A study of Mus musculus with 24 samples.

Results

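The comparison described here is that of restimulated mouse Th1 cells primed with 0.5 µM I-BET-762 against restimulated cells primed without it. It holds 9 of the 24 arrays of the study: 3 arrays with 0.5 µM I-BET-762 and 6 control arrays, of which 3 had received the solvent DMSO and 3 the compound Control-768. The arrays were taken by their titles, all 18193 measured genes were compared, and where a gene had several probe sets the brightest on average stood for it. CD4+ T cells came from 2D2 mice on a C57BL/6 background. These mice carry a transgenic T cell receptor that recognises myelin oligodendrocyte glycoprotein, so most of their T cells share a single specificity. In all groups plate-bound antibodies to CD3 and CD28 stimulated the cells in a Th1 milieu, together with I-BET-762, Control-768 or only the solvent DMSO. They were taken off the plates after 48 h and expanded for 2 more days. The activated cells were then put back on the antibodies for 4 h before RNA was isolated, whereas the resting cells were not. The concentration of Control-768, and whether the compounds were still present during the restimulation, are not given in the sources used here. The design states 3 biological replicates and does not say whether they were separate animals, so the p-values measure the spread between these cultures.

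I-BET-762 occupies the bromodomains of the BET proteins, with which these proteins read acetylated histones at enhancers and promoters and recruit the elongation factor P-TEFb to RNA polymerase II. Genes that depend on large enhancers, among them Myc in many cell types, are often the ones that respond to such inhibitors. Th1 cells are the helper T cells that secrete interferon gamma under the control of the transcription factor T-bet, and antigen receptor signals make them transcribe cytokine genes within hours.

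The deposited values are array intensities on a linear scale, and differences are given as log2(intensity + 16) with the standard error (SE) of limma's model. A difference of 1 is a doubling for bright genes, and the added constant compresses the differences of dim ones. The model held all 24 arrays and the replicate number as a block, because arrays with the same number deviated together. A gene was called when its limma p, after Benjamini-Hochberg adjustment across the 18193 genes, was under 0.05. The controls were nearly alike. DMSO and Control-768 arrays of the same number correlated with r between 0.994 and 0.995, and limma called 0 genes between them, with 445 at an unadjusted p under 0.05. The array of 0.5 µM I-BET-762 numbered 3 stood apart among the activated arrays. Its values deviated from the group mean with an SD of 0.34 log2, against 0.17 to 0.24 on the other 11 activated arrays. Its 3' minus 5' difference of the Gapdh control probe sets was 0.31 log2, against -0.02 to 0.29. That difference did not set it apart, since 0.25 µM replicate 3 was at 0.29 and Control-768 replicate 3 at 0.28. Results that rest on this array are given without it as well. T cell identity was as labelled: the 8 CD4 T cell markers summed to intensities of 38718 to 40100 with the inhibitor and 34280 to 36738 in the controls. All 6 measured B cell markers, 8 of 9 myeloid markers and all 4 measured NK cell markers stayed under 64 on every one of the 9 arrays. Markers of CD8 T cells and of antigen presentation were not all dim. Cd8b1, a chain of the CD8 co-receptor, was at 444 to 859 with the inhibitor and 528 to 830 in the controls, and the MHC class II gene H2-Ab1 reached 1471; the part of such cells in the results was not tested.

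At 0.5 µM the inhibitor changed a limited set of genes strongly, and more of the large changes were falls. Of 18193 genes 1008 were called (5.54%), 437 higher (2.40%) and 571 lower (3.14%). At least 2-fold changes were found for 213 of them, 49 higher and 164 lower. The median difference over all genes was -0.00. In 998 of the 1008 the direction was the same within all 3 replicate numbers. The calls came from a model with that number as block on the same arrays, so the choice of genes largely requires this. For 587 called genes the treated arrays did not overlap the 6 control arrays, 218 of them higher and 369 lower, where 1173 of all genes (6.45%) had no overlap, 522 higher (2.87%) and 651 lower (3.58%). The count without 0.5 µM replicate 3 was 688, with 358 higher and 330 lower. Of these 688 genes 518 were among the 1008, 217 of them higher and 301 lower, and the others were newly called. Without the replicate block 275 genes were called, 93 higher and 182 lower. With DMSO as the only control 596 genes were called, and with Control-768 as the only control 613. Treating each replicate number as a single difference, an alternative added after the data were seen, left 56 genes, 14 higher and 42 lower, and 33 of the 121 called genes named here kept their call in it. The sources do not say whether the DMSO and Control-768 arrays of a number came from separate cultures, and if they did not, the 6 control arrays count as 3 and the p-values of the model are too small.

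**Figure D1:**
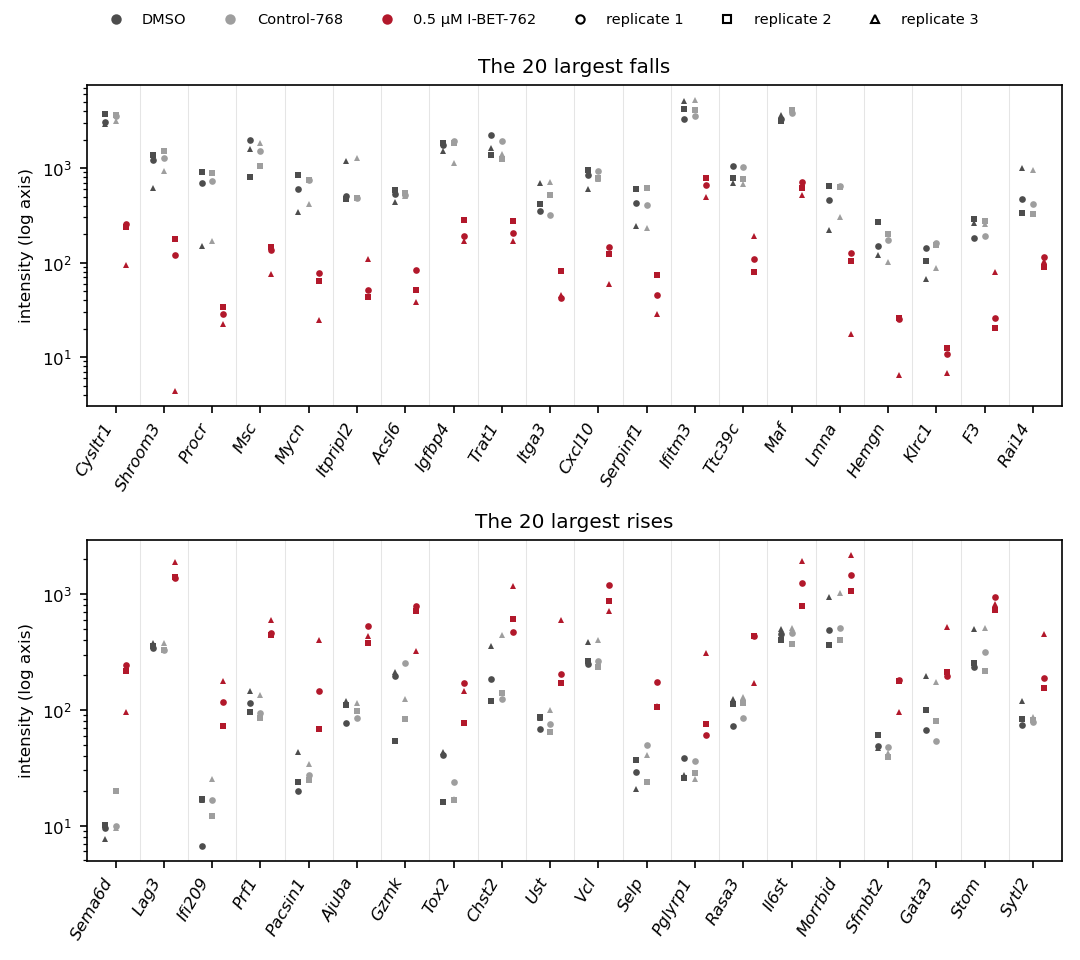
Intensity on a log axis (arbitrary units) of the 20 genes with the largest falls and the 20 with the largest rises among called genes without overlap, for the 3 arrays of DMSO (dark grey), Control-768 (light grey) and 0.5 µM I-BET-762 (red); symbols mark the replicate number. In every panel column the red symbols lie clear of all 6 grey ones, as the choice of these genes requires, and the array numbered 3 is often the one farthest from its group, as for Shroom3 and Pacsin1.

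The largest fall was that of Cysltr1, which encodes a receptor for the cysteinyl leukotrienes. Its intensity was 3070, 3720 and 2900 with DMSO, 3521, 3607 and 3183 with Control-768, and 259, 240 and 94.5 with 0.5 µM I-BET-762. All treated arrays lay more than 10-fold below every control array, and the gene fell by 4.07 ± 0.20 log2 (adjusted p = 2.27e-08). A further probe set of the gene fell by 4.34. Shroom3, an actin-binding protein that shapes epithelial cells, fell by 3.79 ± 0.33 (adjusted p = 3.52e-06), from 620 to 1517 in the controls to 119, 176 and 4.35. The array numbered 3 gave the lowest of these values. Procr, the endothelial protein C receptor, fell by 3.47 ± 0.32 (adjusted p = 4.87e-06). Msc, a basic helix-loop-helix repressor also called MyoR, fell by 3.43 ± 0.26 (adjusted p = 7.86e-07), from 804 to 1994 in the controls to 136, 147 and 75.2.

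The promoter windows of Cxcl10, Il13 and Csf2 are shown because these cytokine genes gave the 3 patterns met below: Cxcl10 fell in activated cells, Il13 rose in activated cells and not in resting ones, and Csf2, on the same chromosome as Il13, fell. Each window runs from 250 bases before to 50 after the start site and was taken from RefSeq on GRCm38.p6. The windows lie at chr5:92348840-92349139, chr11:53634653-53634952 and chr11:54249850-54250149, all on the minus strand, and are written 5′ to 3′ along the gene. Capitals mark matches on either strand to the letters searched for an E-box, an AP-1 site, a TATA box and an NF-kB site. These letters are given with the shares. Other forms of the sites were not searched and are not in capitals.
Cxcl10: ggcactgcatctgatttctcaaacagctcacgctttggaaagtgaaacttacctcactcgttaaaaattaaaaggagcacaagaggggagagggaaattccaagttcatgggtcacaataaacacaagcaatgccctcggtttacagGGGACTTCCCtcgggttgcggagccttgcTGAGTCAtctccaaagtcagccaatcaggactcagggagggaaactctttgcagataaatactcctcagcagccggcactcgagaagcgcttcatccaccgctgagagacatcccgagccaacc
Il13: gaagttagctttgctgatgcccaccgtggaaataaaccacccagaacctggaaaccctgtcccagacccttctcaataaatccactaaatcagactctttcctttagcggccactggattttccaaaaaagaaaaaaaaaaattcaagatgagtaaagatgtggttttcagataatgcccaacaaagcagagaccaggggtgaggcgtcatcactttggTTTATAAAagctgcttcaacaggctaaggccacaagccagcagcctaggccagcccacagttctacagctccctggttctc
Csf2: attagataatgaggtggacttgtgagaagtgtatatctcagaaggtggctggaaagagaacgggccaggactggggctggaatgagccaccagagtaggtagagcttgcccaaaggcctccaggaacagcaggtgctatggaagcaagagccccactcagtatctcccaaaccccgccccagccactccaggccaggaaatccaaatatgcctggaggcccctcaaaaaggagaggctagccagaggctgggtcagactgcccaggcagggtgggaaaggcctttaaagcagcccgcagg
In Cxcl10 the NF-kB match began 103 bases and the AP-1 match 74 bases before the start site. In Il13 the capitals are 2 overlapping TATA matches on opposite strands, 31 and 29 bases before it. The Csf2 window held none of these letters.

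A promoter window was found for 14452 of the 18193 genes, with 367 of the genes called higher and 459 of those called lower. The AP-1 letters, searched as TGACTCA, stood in 4.37% of all windows, in 2.72% of the genes called higher and in 7.41% of those called lower. The TATA letters, searched as TATAAA, stood in 9.87%, 4.90% and 10.7% of the same groups of windows. The E-box, which MYC and its relatives bind and which was searched as CACGTG, stood in 9.02%, 6.27% and 9.15%, and the NF-kB letters in 1.27%, 1.91% and 1.74%. These shares describe the letters and were not tested, and AP-1 and NF-kB factors are known to act at many other sequences.

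Cytokine genes were split, and the signature cytokine of the lineage was not among those called. Among the 24 cytokine genes measured, 2 rose and 7 fell (37.5% called), with a list median of -0.20 beside -0.00 for all genes. Ifng, which encodes interferon gamma, was at 16932, 15469 and 17956 with DMSO, 16199, 15936 and 17770 with Control-768, and 17037, 15800 and 17054 with the inhibitor. The groups overlapped fully, and the difference was -0.01 with a 95% interval of -0.43 to 0.42 (adjusted p = 0.994). These values lie near the top of the scale, where arrays can compress differences: only 9 to 40 probe sets per array were brighter, and the highest values on the arrays were 19612 to 21015. Il2, the T cell growth factor, was at 0.13 (-0.40 to 0.65), the inflammatory cytokine Tnf at -0.01 (-0.37 to 0.34) and the Th17 cytokine Il17a at -0.12 (-0.76 to 0.52). In RNA of whole cultures, a smaller share of producing cells and less RNA per cell cannot be told apart.

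Il13, a type 2 cytokine, was the cytokine with the largest rise. Its intensity was 209, 116 and 1314 with DMSO, 205, 125 and 1170 with Control-768, and 1643, 789 and 5738 with 0.5 µM I-BET-762. The array numbered 3 was highest in every group, so the groups overlapped, yet within each replicate number the treated array lay far above both controls. The gene rose by 2.55 ± 0.18 (adjusted p = 5.60e-07). Il10, the anti-inflammatory cytokine, was at 1722, 1177 and 7584 with DMSO, 1616, 1959 and 8068 with Control-768, and 7945, 5921 and 15482 with the inhibitor. Again every treated array exceeded the controls of its own number, and Il10 rose by 1.73 ± 0.25 (adjusted p = 4.91e-04). Both calls need the block: without it their adjusted p were 0.126 for Il13 and 0.223 for Il10.

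The cytokines that fell included subunits and growth factors of other lineages. Ebi3, a chain of IL-27 and IL-35, was at 1067 to 1525 in the controls and 413, 351 and 262 with the inhibitor, without overlap, and fell by 1.84 ± 0.16 (adjusted p = 3.52e-06). Il24, a relative of IL-10, was at 1472 to 2464 in the controls and at 552, 286 and 565 with the inhibitor. It fell by 2.06 ± 0.25 (adjusted p = 1.03e-04). Csf2, which encodes the growth factor GM-CSF, was at 581, 365 and 4442 with DMSO, 249, 558 and 4185 with Control-768, and 166, 162 and 741 with the inhibitor. The arrays overlapped between numbers and not within them, and Csf2 fell by 1.68 ± 0.29 (adjusted p = 0.00220). Il3, which acts on haematopoietic progenitors, was at -2.23 ± 0.54 (adjusted p = 0.0223), with 334 to 6079 in the controls and 204, 275 and 573 with the inhibitor. The remaining falls were those of Il1a (-2.16), the follicular helper cytokine Il21 (-0.98 ± 0.26, adjusted p = 0.0363) and Il12a (-0.54).

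Several of these calls rest on single arrays or on the block. Without 0.5 µM replicate 3, Il3 was at -1.67 (adjusted p = 0.193) and Il21 at -0.62 (adjusted p = 0.304), and the list had 3 cytokines higher and 3 lower. The 3 lower ones were Ebi3, Il24 and Csf2, so Il1a and Il12a were not called without that array either. Without 0.5 µM replicate 1 the adjusted p of Il3 was 0.0532, and it lay between 0.0539 and 0.0601 without each of DMSO replicate 1, Control-768 replicate 2 and Control-768 replicate 3. Il21 also lost its call without 0.5 µM replicate 2 (0.0788), and without each of DMSO replicates 1, 2 and 3 and Control-768 replicates 2 and 3 (0.0616 to 0.0944). A dimmer probe set of Il21 was at 0.51 (adjusted p = 0.233 over all probe sets). Without the replicate block Csf2 (0.519), Il3 (0.372) and Il21 (0.213) were not called, while Ebi3 and Il24 were. Lta, lymphotoxin alpha, lay below the controls on average without passing the test (-0.91 ± 0.30, adjusted p = 0.106).

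Chemokine genes moved in both directions: of 15, 2 rose and 2 fell (26.7%; list median 0.07, and 0.20 without 0.5 µM replicate 3). Cxcl10, a ligand of the Th1 receptor CXCR3, was at 836, 951 and 595 with DMSO, 936, 791 and 771 with Control-768, and 146, 124 and 58.9 with the inhibitor. No treated array came near a control, and Cxcl10 fell by 2.78 ± 0.27 (adjusted p = 7.94e-06). Cxcl2, a neutrophil chemokine close to the background here, fell by 0.57 (adjusted p = 0.0173), and not without 0.5 µM replicate 3 (-0.42, adjusted p = 0.154). Ccl5, a chemokine stored by effector T cells, rose by 1.20 ± 0.21 (adjusted p = 0.00224). It was at 1108, 1058 and 1938 with DMSO, 1152, 966 and 2398 with Control-768, and 2567, 1803 and 6555 with the inhibitor. Ccl4, a macrophage inflammatory protein, was higher by 0.97 ± 0.25 (adjusted p = 0.0364). Its call was lost without any one of 0.5 µM replicates 1 and 2, DMSO replicates 1 and 2 and Control-768 replicate 1 (adjusted p = 0.0573 to 0.177). Neither Ccl5 (0.496) nor Ccl4 (0.457) was called without the block.

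Among receptors for chemokines and lipid mediators, 2 of 22 rose and 4 fell (27.3%; list median -0.04). Beside Cysltr1, the monocyte and T cell receptor Ccr2 fell by 1.95 ± 0.25 (adjusted p = 1.46e-04). Ccr2 was at 225, 296 and 775 with DMSO, 240, 326 and 975 with Control-768 and 74.8, 102 and 98.6 with the inhibitor. The treated arrays were alike, and the controls numbered 3 were the highest. Cxcr3, the receptor for Cxcl10, fell by 0.92 ± 0.18 (adjusted p = 0.00578), with an adjusted p of 0.0606 without 0.5 µM replicate 3. The leukotriene B4 receptor Ltb4r1 fell by 0.55 ± 0.07 (adjusted p = 2.47e-04). The rises were those of Cxcr6 (1.35) and the prostaglandin receptor Ptger2 (0.70), named here because only these members rose. Without 0.5 µM replicate 3, 1 member of the list was called higher and 3 lower, so at most 1 of these rises kept its call. Ccr2 (0.116) and Cxcr3 (0.436) were not called without the block.

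Of 22 cytokine receptors 4 rose and 3 fell (31.8%; list median 0.12). Il6st, the signalling chain gp130 of the IL-6 family, was at 372 to 506 in the controls and 1237, 786 and 1924 with the inhibitor. It rose by 1.44 ± 0.27 (adjusted p = 0.00406; 0.0526 without 0.5 µM replicate 3). The decoy receptor Il1r2 fell by 1.27 ± 0.14 (adjusted p = 4.19e-05), from 203 to 441 in the controls to 90.4, 78.9 and 176. Il7r, the receptor for the survival cytokine IL-7, fell by 1.54 ± 0.29 (adjusted p = 0.00377), with 255 on the array numbered 3 against 1588 and 1966 on the others; without that array the fall was 0.96 on the log2 scale and still called. Smaller rises were those of Il21r (0.54) and Il17ra (0.53). Il7r (0.130) and Il21r (0.132) were not called without the block. Of the 16 STAT factors and cytokine feedback genes limma called 0, with 4 at an unadjusted p under 0.05. The smallest p was that of Stat2, a factor of interferon signalling, at -0.62 (adjusted p = 0.0773). The 0 depends on the fit and the probe set: Stat2 was called in 6 and Jak2 in 3 of 26 alternative settings. Jak2 was at 0.44, and its other probe set rose by 0.58 (adjusted p = 0.0178 over all probe sets by limma).

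Of 10 TNF superfamily ligands 1 rose and 3 fell (40.0%; list median -0.10). Tnfsf8, the CD30 ligand, fell by 0.82 ± 0.11 (adjusted p = 3.19e-04), Cd70 by 0.98 ± 0.19 (adjusted p = 0.00494; 0.0552 without 0.5 µM replicate 3) and Tnfsf11, the osteoclast factor RANKL, by 0.68 (adjusted p = 0.0375). The call of Tnfsf11 was lost without each of 0.5 µM replicates 1 and 3, DMSO replicates 1 and 3 and Control-768 replicates 2 and 3 (0.0777 to 0.286). The OX40 ligand Tnfsf4 rose by 0.67 (adjusted p = 0.00252). Of 15 TNF receptors 2 rose and 1 fell, with a list median of 0.05. Tnfrsf1b, a receptor for TNF, was at 609 to 933 in the controls and 1301, 1406 and 1798 with the inhibitor, and rose by 1.09 ± 0.13 (adjusted p = 9.47e-05). Tnfrsf13b, known as TACI, fell by 1.07 ± 0.12 (adjusted p = 5.95e-05). Cd27, a costimulatory receptor that binds Cd70, was at 1.08 ± 0.27 (adjusted p = 0.0309), and its call was lost without each of 0.5 µM replicates 1, 2 and 3 and 4 of the control arrays, DMSO replicates 1 and 3 and Control-768 replicates 1 and 3 (0.0537 to 0.128). Without the block Tnfsf8 (0.352), Cd70 (0.664), Tnfsf11 (0.723) and Cd27 (0.201) were not called.

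Lineage factors shifted within every helper subset. Of 16 Th1 genes 3 rose and 4 fell (43.8%; list median 0.01). Tbx21, which encodes T-bet, was at 2889 to 3969 in the controls and 4268, 3883 and 4702 with the inhibitor, a difference of 0.29 ± 0.10 that was not called (adjusted p = 0.113). Eomes, the related T-box factor, was at 171 to 376 in the controls and 97.9, 71.5 and 75.6 with the inhibitor, and fell by 1.46 ± 0.20 (adjusted p = 3.09e-04). Hlx, a homeobox factor that acts with T-bet, fell by 0.99 ± 0.13 (adjusted p = 2.58e-04; 0.0684 without the block). Irf1, an interferon-induced factor, fell by 1.12 ± 0.17 (adjusted p = 5.68e-04; 0.267 without the block), from 5063, 4704 and 2243 with DMSO to 2724, 3086 and 679. Nkg7, a protein of cytotoxic granules, rose by 1.12 ± 0.09 (adjusted p = 1.40e-06; 0.0899 without the block).

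Of 11 Th2 genes 2 rose and 1 fell (27.3%; list median -0.07), and those that moved were the cytokine Il13 and 2 transcription factors in opposite directions. Maf, a factor that drives Il4, Il10 and Il21 in helper T cells, was at 3150 to 4136 in the controls and 716, 609 and 520 with the inhibitor. It fell by 2.56 ± 0.15 (adjusted p = 6.31e-08), and 4 further probe sets of the gene fell by 2.70, 2.60, 2.18 and 0.65 on the log2 scale. The last one, near the background, was at -0.00. Gata3, the Th2 master regulator, was at 66.3, 99.1 and 195 with DMSO, 53.5, 80.7 and 174 with Control-768, and 197, 212 and 521 with the inhibitor. It rose by 1.34 ± 0.13 (adjusted p = 1.20e-05; 0.376 without the block). The Th2 cytokines Il4 and Il5 were at 0.61 (adjusted p = 0.140) and -0.42 (adjusted p = 0.271).

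In the other subsets, Rora, a nuclear receptor of Th17 cells, fell by 1.97 ± 0.18 (adjusted p = 5.83e-06), from 690 to 801 in the controls to 149, 168 and 218, and Batf, an AP-1 factor needed for Th17 cells, rose by 0.39 (adjusted p = 0.00571; 0.413 without the block). These were the called members among 7 Th17 genes (28.6%; list median 0.12, and 0.02 without 0.5 µM replicate 3). Of 13 regulatory T cell genes 2 rose and 4 fell (46.2%; list median 0.12). Ikzf4, which encodes the factor Eos, fell by 0.90 ± 0.12 (adjusted p = 3.09e-04; 0.215 without the block), and Foxp3 itself was at -0.01 (adjusted p = 0.977). Izumo1r, a folate receptor family member of regulatory T cells, rose by 0.52 (adjusted p = 0.00855), and not without 0.5 µM replicate 1 (just past the threshold), without 0.5 µM replicate 2 (0.0788) or without the block (0.120). Of 13 follicular helper genes 3 rose and 2 fell (38.5%; list median -0.19). Tox, an HMG-box factor, rose by 1.30 ± 0.23 (adjusted p = 0.00247), from 126 to 168 in the controls to 389, 357 and 407, and its other probe sets rose by 0.80 and 0.97. Its relative Tox2 rose by 1.79 ± 0.16 (adjusted p = 3.62e-06) by a probe set of the kind that may bind related transcripts, while the remaining one, near the background, was at -0.22 (adjusted p = 0.778 in the fit without such probe sets).

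Among 13 inhibitory receptors 5 rose and 1 fell (46.2%), while 7 were not called and the list median was 0.03. Lag3, which binds MHC class II, was at 342, 353 and 376 with DMSO, 326, 329 and 376 with Control-768, and 1384, 1401 and 1903 with the inhibitor. The controls were almost equal and all treated arrays lay far above them, and Lag3 rose by 2.09 ± 0.18 (adjusted p = 3.09e-06). Havcr2, known as TIM-3, rose by 1.21 ± 0.23 (adjusted p = 0.00454), with 0.0530 without 0.5 µM replicate 2. Cd274, known as PD-L1, rose by 0.98 ± 0.21 (adjusted p = 0.0101), with 0.73 (adjusted p = 0.114) without 0.5 µM replicate 3. Pdcd1, which encodes PD-1, was at 0.70 (adjusted p = 0.0375) and Vsir at 0.95 (adjusted p = 0.0149). Ctla4 fell by 0.46 ± 0.10 (adjusted p = 0.00975), with 0.0816 without 0.5 µM replicate 3. Without that array 2 of the 13, Lag3 and Havcr2, were higher and 0 lower in limma's test, so Pdcd1 and Vsir were not called. With all arrays 6 members had an unadjusted p under 0.05. Havcr2 (0.529), Cd274 (0.248) and Ctla4 (0.191) were not called without the block.

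Of 18 cytotoxic granule genes 5 rose and 2 fell (38.9%; list median 0.13, and 0.06 without 0.5 µM replicate 3). Prf1, which encodes the pore-forming perforin, was at 114, 95.9 and 145 with DMSO, 93.5, 84.7 and 135 with Control-768, and 465, 444 and 593 with the inhibitor. All treated arrays lay above 3 times the highest control, and Prf1 rose by 2.03 ± 0.12 (adjusted p = 6.94e-08). A dimmer probe set (mean intensity 34.4) was at 0.17. Gzmk, a granzyme, was at 53.5 to 256 in the controls and 787, 710 and 320 with the inhibitor, and rose by 1.93 ± 0.31 (adjusted p = 0.00124). Rab27a, a GTPase of granule release, rose by 0.74 ± 0.12 (adjusted p = 0.00166). The main granzymes of effector cells did not pass: Gzmb was at 0.02 (adjusted p = 0.970) and Gzma at -0.10 (adjusted p = 0.882). Sytl2, an effector of Rab27a in secretion outside this list, rose by 1.31 ± 0.26 (adjusted p = 0.00559; 0.0733 without 0.5 µM replicate 3). Rab27a (0.0568) and Sytl2 (0.336) were not called without the block.

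Of 12 NK-type lectin receptors 0 rose in limma's test and 3 fell (25.0%; list median -0.50, and -0.32 without 0.5 µM replicate 3), with 6 at an unadjusted p under 0.05. Klrc1, which encodes the inhibitory receptor NKG2A, was at 144, 105 and 67.2 with DMSO, 160, 155 and 88.2 with Control-768, and 10.8, 12.6 and 6.78 with the inhibitor, close to the background. It fell by 2.34 ± 0.18 (adjusted p = 9.60e-07). Klrk1, the activating receptor NKG2D, fell by 1.51 ± 0.25 (adjusted p = 0.00173), from 55.1 to 228 to 38.5, 31.5 and 34.3. Klre1 fell by 0.65 (adjusted p = 0.0244), and its call was lost without each of 0.5 µM replicates 1, 2 and 3 and of 4 control arrays, DMSO replicates 1 and 3 and Control-768 replicates 1 and 2 (0.0560 to 0.0999), and without the block (0.0548). The NK cell markers outside the lectin family stayed dim in all arrays, as given above.

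**Figure D2:**
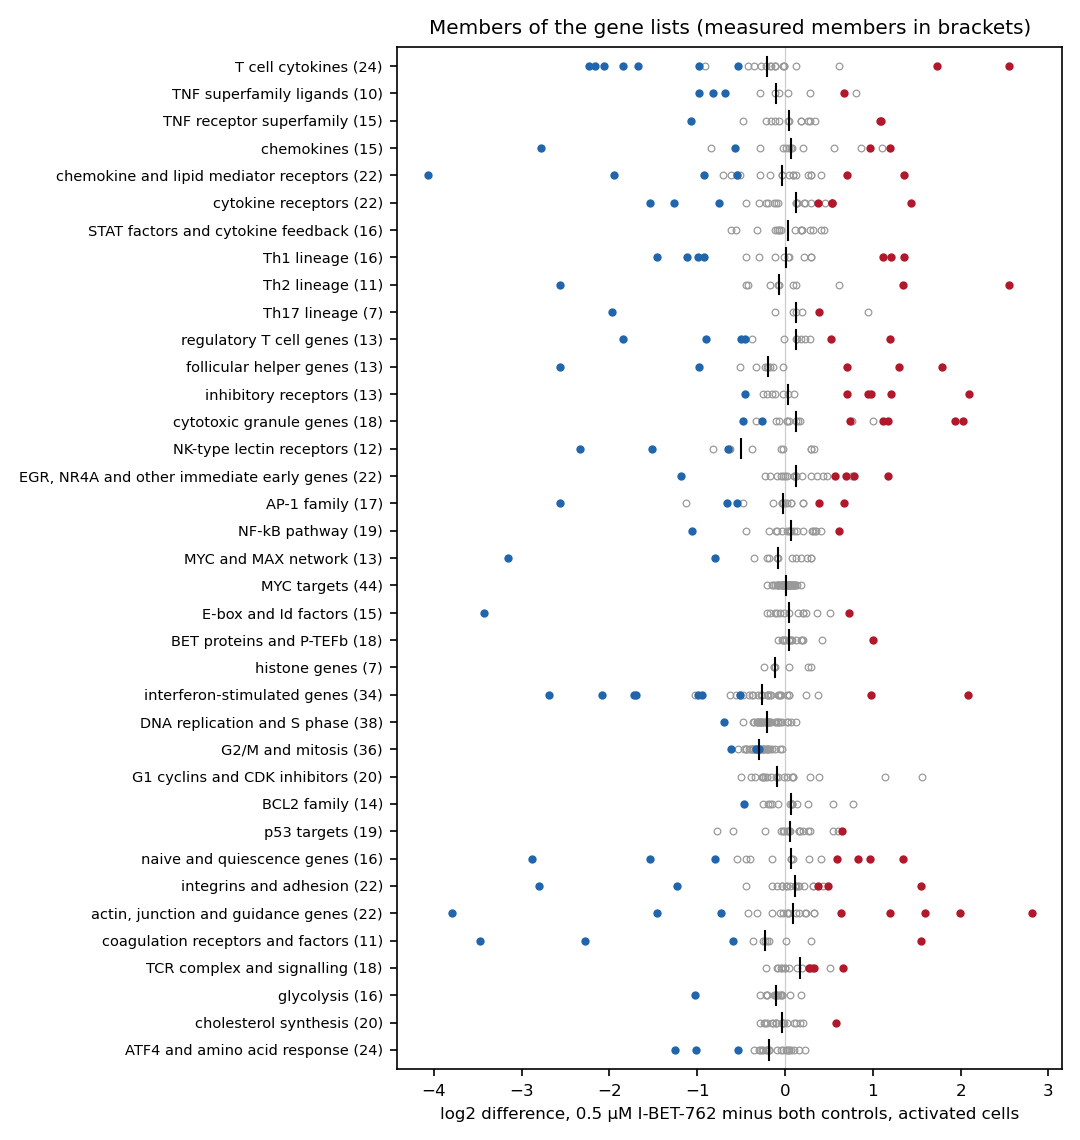
Log2 difference (0.5 µM I-BET-762 minus both controls, activated cells) of every measured member of the 37 pathway lists, one row per list with the number of measured members in brackets; red and blue points are members called higher and lower, open points were not called, and the black tick is the list median. The ticks stay near 0 in most rows while single members such as Cysltr1, Shroom3, Il13 and Sema6d lie far out, and the MYC target row stays between -0.20 and 0.18 with 0 members called by limma.

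Of 18 genes of the T cell receptor complex and its signalling 3 rose (16.7%; list median 0.17), and all 18 lay between -0.22 and 0.66. Malt1, a protease between the antigen receptor and NF-kB, rose by 0.66 ± 0.10 (adjusted p = 0.00109), from 2617 to 3546 in the controls to 4659, 4197 and 5941. The CD3 chains Cd3g and Cd3d were higher by 0.33 (adjusted p = 0.0141) and 0.27 (adjusted p = 0.0427). Without 0.5 µM replicate 3 neither passed (0.0937 and 0.198), nor did they without 0.5 µM replicate 1 (0.0551 and 0.114), and Cd3d also lost its call without each of 0.5 µM replicate 2, DMSO replicates 1, 2 and 3 and Control-768 replicates 2 and 3 (0.0534 to 0.111), and without the block (0.146). Trat1, an adaptor that stabilises receptor signalling and was not on that list, fell by 2.83 ± 0.18 (adjusted p = 9.63e-08). Its intensity was 2233, 1379 and 1628 with DMSO, 1948, 1260 and 1423 with Control-768 and 205, 276 and 169 with the inhibitor.

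Of 22 immediate early genes 4 rose and 1 fell (22.7%; list median 0.13, and 0.08 without 0.5 µM replicate 3). The rises were those of feedback regulators of MAP kinase and of a NFAT factor. Dusp4, a MAP kinase phosphatase, rose by 1.17 ± 0.19 (adjusted p = 0.00133), Spry1 by 0.79 ± 0.14 (adjusted p = 0.00344), Nfatc1 by 0.57 ± 0.10 (adjusted p = 0.00254) and Dusp6 by 0.69 ± 0.16 (adjusted p = 0.0177; 0.140 and 0.0750 without 0.5 µM replicates 1 and 2). None of these 4 was called without the block (0.376 to 0.688). Egr1 and Nr4a1, typical first responders, were at 0.36 (adjusted p = 0.659) and -0.05 (adjusted p = 0.902). Of 17 AP-1 factors 2 rose and 3 fell (29.4%, list median -0.02). Apart from Maf these were changes under 2-fold, such as Fosl1 at -0.55 (adjusted p = 0.00231) and Jdp2 at -0.66 (adjusted p = 0.00367), with 0.669 and 0.201 without the block. A dimmer probe set was at -0.09 for Fosl1 and at 0.15 for Jdp2, and neither was called. Of 19 NF-kB pathway genes 1 rose and 1 fell (10.5%; list median 0.07). The subunit gene Rel rose by 0.62 ± 0.11 (adjusted p = 0.00250; 0.788 without the block). Cd83, a surface protein of activated lymphocytes, fell by 1.06 ± 0.14 (adjusted p = 1.74e-04), from 73.7 to 154 to 47.4, 42.2 and 39.3.

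Myc, the growth regulator, was not called after 4 h of restimulation. It was at 8413, 8758 and 8724 with DMSO, 9030, 8775 and 8466 with Control-768 and 8530, 8408 and 10910 with 0.5 µM I-BET-762, a difference of 0.08 with an interval of -0.28 to 0.45 (adjusted p = 0.871). The 44 measured MYC targets had a median of 0.01, between -0.20 and 0.18, and limma called 0 of them, with 0 at an unadjusted p under 0.05. In resting cells 6 of the same targets were lower and 1 higher, with a median of -0.27. Mycn, a relative of Myc, was at 595, 850 and 340 with DMSO, 744, 748 and 412 with Control-768, and 77.6, 63.7 and 24.7 with the inhibitor. It fell by 3.16 ± 0.18 (adjusted p = 6.31e-08), although dimmer ones (mean intensity 95.1 and 89.5) were at -0.20 and -0.01 (adjusted p = 0.433 and 0.991 over all probe sets). The MYC antagonist Mxi1 fell by 0.80 ± 0.12 (adjusted p = 5.44e-04; 0.254 without the block). Of 15 E-box and Id factors Msc fell and Id2, an inhibitor of such factors, rose by 0.73 ± 0.12 (adjusted p = 0.00109; 0.311 without the block).

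Brd2 and Brd3, which encode BET proteins, were not called. Brd2 was at -0.02 (-0.24 to 0.21) and Brd3 at 0.19 (adjusted p = 0.162). Hexim1, which holds P-TEFb inactive and is often used as a marker of BET inhibition, was at 1656 to 2136 in the controls and 2045, 1962 and 1870 with the inhibitor. Its difference was 0.05 with an interval of -0.18 to 0.28. A dimmer probe set of Hexim1 (mean intensity 126) was at 0.47 ± 0.15 and not called (adjusted p = 0.0966 by limma over all probe sets). By the brighter probe set Hexim1 rose by 0.59 in resting cells (adjusted p = 0.00214). The difference between the states was not called (adjusted p = 0.196). Of 18 BET and P-TEFb genes Ell2, an elongation factor, was called (5.56%). It rose about 2-fold (log2 SE 0.16, adjusted p = 0.00101; 0.134 without the block), from 1313, 1238 and 2893 with DMSO to 2964, 3054 and 4474. Of 7 measured histone genes limma called 0, with 1 at an unadjusted p under 0.05.

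Interferon-stimulated genes were lower more often than higher. Of 34, 2 rose and 7 fell (26.5%; list median -0.26), and the medians within the replicate numbers were -0.13, -0.36 and -0.28. Without 0.5 µM replicate 3, limma called 3 of the list higher and 5 lower, with a median of -0.26. Ifitm3, a membrane protein that restricts virus entry, was at 3277, 4215 and 5120 with DMSO, 3555, 4062 and 5248 with Control-768 and 655, 793 and 491 with the inhibitor, without overlap. It fell by 2.69 ± 0.23 (adjusted p = 3.52e-06). Its neighbour Ifitm1 fell by 1.72 ± 0.13 (adjusted p = 9.79e-07; 0.101 without the block). Irgm1, an interferon-induced GTPase, fell by 1.70 ± 0.21 (adjusted p = 8.98e-05; 0.117 without the block), from 1975, 1819 and 579 with DMSO to 609, 788 and 127. Classical members such as Ifit1 (-0.31) and Rsad2 (-0.16) were not called (adjusted p = 0.648 and 0.742). Ifi209, a member of the DNA-sensing PYHIN family, went against the list: it rose by 2.08 ± 0.27 (adjusted p = 2.06e-04), from 6.66 to 25.2 in the controls to 117, 72.9 and 177.

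Cell cycle genes were lower on a single array. Of 36 G2/M genes limma called 3 lower and 0 higher (8.33%), with a median of -0.30 and 20 at an unadjusted p under 0.05. Of 38 S phase genes 1 was lower (2.63%), with a median of -0.21. Within replicate numbers 1, 2 and 3 the G2/M median was -0.02, 0.06 and -0.88, and the S phase median 0.05, 0.10 and -0.84. Without 0.5 µM replicate 3 the medians were -0.02 and 0.09 and limma called 0 genes of either list. The called members were the mitotic kinase Aurka (-0.61, adjusted p = 0.0108; -0.34 and 0.0690 without that array), Ube2c (-0.30, adjusted p = 0.0244; 0.153), Cdc20 (-0.33, adjusted p = 0.0482; 0.335) and the clamp loader subunit Rfc3 (-0.70, adjusted p = 0.00651; 0.0726). Other single arrays also decided the calls of Ube2c (0.0527 to 0.0716 without each of 0.5 µM replicate 1, DMSO replicate 3 and Control-768 replicate 1) and of Cdc20 (0.0542 to 0.125 without any one control array), and without the block Ube2c (0.0568), Cdc20 (0.242) and Rfc3 (0.420) were not called. 0.5 µM replicate 3 is the activated array with the largest deviations. Its Gapdh difference (0.31) was near those of 0.25 µM replicate 3 (0.29) and Control-768 replicate 3 (0.28). The part of RNA quality in these values was not tested. Of 20 G1 cyclins and CDK inhibitors limma called 0, with 3 at an unadjusted p under 0.05; without that array 3 were called higher, among them Cdkn2d (0.66, adjusted p = 0.0103) and Rb1 (0.52, adjusted p = 4.39e-04).

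**Figure D3:**
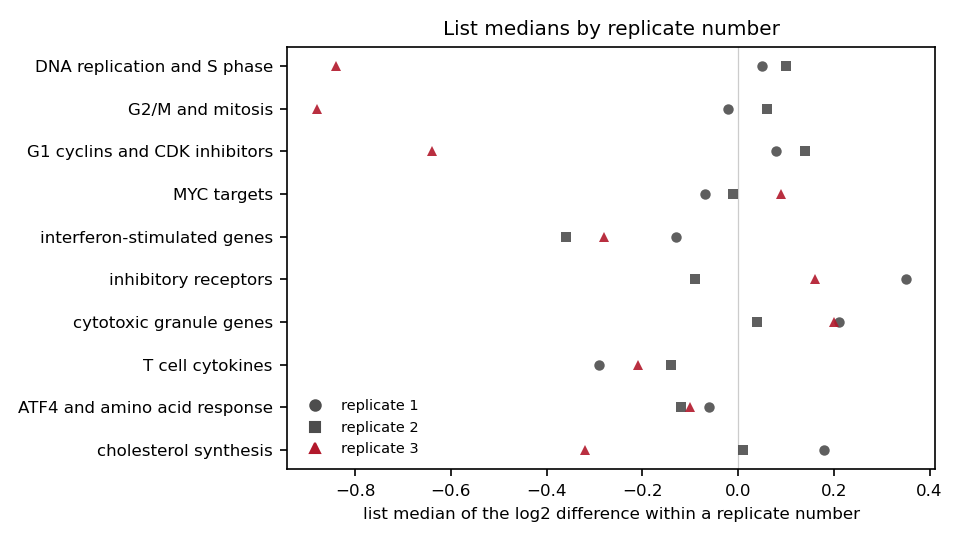
Median log2 difference of 10 gene lists within each replicate number (0.5 µM I-BET-762 minus the mean of both controls of that number); circles, squares and red triangles are replicates 1, 2 and 3. For DNA replication and G2/M the triangles lie at -0.84 and -0.88 while the other replicates lie between -0.02 and 0.10. The triangle also lies lower for G1 cyclins and CDK inhibitors (-0.64, beside 0.08 and 0.14) and for cholesterol synthesis (-0.32, beside 0.18 and 0.01). MYC targets, cytokines and interferon-stimulated genes show no such gap.

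Called shares in the metabolic and stress lists were near the 5.54% of all genes (6.25% for glycolysis, 5.26% for p53 targets and 7.14% for the BCL2 family), apart from the ATF4 list. Of 16 glycolysis genes the aldolase Aldoc fell by 1.02 ± 0.15 (adjusted p = 4.14e-04; 0.761 without the block), and of 20 cholesterol synthesis genes Tm7sf2 rose by 0.58 (adjusted p = 0.0198), with 0.153 and 0.0881 without 0.5 µM replicates 1 and 2. Of 24 ATF4 and amino acid response genes 3 fell (12.5%; list median -0.18, and -0.07 without 0.5 µM replicate 3): Chac1 (-0.54), the pseudokinase Trib3 (-1.01) and the asparagine synthetase Asns (-1.25). With 0.5 µM replicate 3 left out limma called 0 of them, and their adjusted p were 0.0619, 0.263 and 0.309. Asns lost its call without any single one of the 9 arrays, Trib3 without each of DMSO replicates 2 and 3 and Control-768 replicates 1 and 3 (0.0642 to 0.0809) and without 0.5 µM replicate 2 (0.0633), and Chac1 without 0.5 µM replicate 2 (0.0502). Without the block the adjusted p were 0.330 for Asns, 0.167 for Trib3, 0.570 for Chac1 and 0.120 for Tm7sf2. Of 19 p53 targets Trp53inp1 rose by 0.65 ± 0.06 (adjusted p = 5.50e-06), and of 14 BCL2 family genes Bcl2l2 fell by 0.47 (adjusted p = 0.00708; 0.0662 without 0.5 µM replicate 3 and 0.229 without the block).

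Genes of naive and quiescent T cells split between large falls and moderate rises. Of 16, 4 rose and 3 fell (43.8%; list median 0.07). Igfbp4, a growth factor binding protein of naive T cells, was at 1128 to 1946 in the controls and 193, 282 and 170 with the inhibitor, and fell by 2.88 ± 0.15 (adjusted p = 2.91e-08). Klf3 rose by 0.97 ± 0.18 (adjusted p = 0.00324), although 6 dimmer probe sets lay between -0.25 and 0.43 and were not called, and Foxo1, a factor of quiescence and homing, rose by 0.59 ± 0.11 (adjusted p = 0.00294).

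Adhesion, guidance and coagulation genes gave some of the largest changes. Sema6d, a transmembrane semaphorin, was at 9.45, 10.2 and 7.71 with DMSO, 9.99, 19.8 and 9.60 with Control-768, and 246, 215 and 95.6 with the inhibitor. The controls lay at the background, and Sema6d rose by 2.81 ± 0.27 (adjusted p = 9.13e-06), while 3 other probe sets of the gene, at means of 12.1 or less, lay between -0.10 and 0.22. The LIM protein Ajuba, a junction scaffold, rose by 1.99 ± 0.19 (adjusted p = 9.34e-06) from 77.6 to 119 to 533, 376 and 434. Vcl, which encodes vinculin, rose by 1.59 ± 0.16 (adjusted p = 1.09e-05). Of 22 actin, junction and guidance genes 5 rose and 3 fell in all (36.4%; list median 0.09).

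The laminin-binding integrin Itga3 fell by 2.80 ± 0.23 (adjusted p = 2.25e-06), from 316 to 709 in the controls to 42.6, 82.3 and 45.7, and Itga7 by 1.23 ± 0.17 (adjusted p = 3.23e-04; 0.120 without the block). Selp, which encodes P-selectin, rose by 1.55 ± 0.22 (adjusted p = 4.34e-04), and Itgb1, the shared beta 1 chain, by 0.49 (adjusted p = 0.0153), with 0.0556 and 0.112 without 0.5 µM replicates 2 and 3 and 0.524 without the block. Of 22 integrin and adhesion genes 3 rose and 2 fell (22.7%; list median 0.11). Of 11 coagulation genes 1 rose and 3 fell (36.4%; list median -0.23, and -0.12 without 0.5 µM replicate 3). Procr was at 687, 902 and 149 with DMSO, 735, 881 and 171 with Control-768 and 28.8, 33.7 and 22.2 with the inhibitor. F3, which encodes tissue factor, was at 180 to 292 in the controls and 25.9, 20.3 and 79.2 with the inhibitor, and fell by 2.28 ± 0.24 (adjusted p = 2.20e-05).

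The largest falls outside the lists were those of Itpripl2, an inositol trisphosphate receptor-interacting protein (-3.11 ± 0.16, adjusted p = 2.27e-08), and Acsl6, a long-chain acyl-CoA synthetase (-2.92 ± 0.25, adjusted p = 3.52e-06; -0.03 by a dimmer probe set). They were followed by Serpinf1, the secreted factor PEDF (-2.72 ± 0.16), Ttc39c (-2.63 ± 0.25), Lmna, which encodes lamin A and C (-2.48 ± 0.41; 0.177 without the block; -0.46 to 0.13 by 4 dimmer probe sets, none called), Hemgn, a nuclear protein of blood progenitors (-2.39 ± 0.14), and the actin-associated Rai14 (-2.20 ± 0.27). Among the rises were the endocytosis adaptor Pacsin1 (2.01 ± 0.36), the sulfotransferases Chst2 (1.74 ± 0.14) and Ust (1.62 ± 0.25), the membrane protein Stom (1.34 ± 0.24), the Polycomb-related Sfmbt2 (1.35 ± 0.13) and Rasa3, which switches off Ras and Rap (1.47 ± 0.26). Morrbid, a long noncoding RNA that represses the cell death gene Bcl2l11, rose by 1.36 ± 0.17 (adjusted p = 1.33e-04), from 362 to 1024 in the controls to 1460, 1059 and 2184. Pglyrp1, a peptidoglycan-binding protein, was at 60.4, 75.4 and 308 with the inhibitor and 25.4 to 38.6 in the controls (1.51 ± 0.38, adjusted p = 0.0281). Its call was lost without each of the arrays numbered 3, of 0.5 µM (0.86, adjusted p = 0.264), DMSO (0.0713) and Control-768 (0.0758), and without the block (0.172).

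Genes of antigen presentation moved with these results. Of 9 dendritic cell and MHC class II markers 3 were lower: Cd74 (-0.80, adjusted p = 0.00151), H2-Ab1 (-0.71, adjusted p = 0.00769) and H2-Eb1 (-0.56, adjusted p = 0.0429). The list summed to at most 1579 with the inhibitor and to 1343 to 2003 in the controls, and 5 of its 9 members stayed under 64 on all 9 arrays. H2-Ab1 was at 1010, 1147 and 261 with the inhibitor, and without 0.5 µM replicate 3 its fall was 0.40 on the log2 scale. H2-Eb1 lost its call without each of 0.5 µM replicates 1, 2 and 3 and of 4 control arrays, DMSO replicates 1 and 2 and Control-768 replicates 1 and 3 (0.0583 to 0.151). Cd74 (0.220), H2-Ab1 (0.619) and H2-Eb1 (0.111) were not called without the block. Whether other cells in the cultures had a part in the falls described above was not tested. Of the 4 NK cell markers Itga2 was higher by 0.37 (adjusted p = 0.0304), and not without 0.5 µM replicate 1 (0.203) or 3 (0.138), nor without each of DMSO replicates 1 and 3 and Control-768 replicates 1 and 3 (0.0630 to 0.0725) or without the block (0.315).

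The same concentration was also tested in resting cells, and most changes were shared. In resting cells 1627 genes were called (8.94%), 650 higher (3.57%) and 977 lower (5.37%). Of the 1008 genes called in activated cells 575 (57.0%) were called in resting cells with the same sign, which is 35.3% of the resting calls, and 3 were called with the opposite sign. In resting cells the log2 difference was -3.93 for Cysltr1, -3.19 for Mycn, -3.17 for Itpripl2, -2.82 for Trat1 and 1.63 for Vcl, all called. The difference between the states itself was called for 49 genes (0.269%), 27 higher and 22 lower in activated cells relative to resting ones. Without 0.5 µM replicate 3 of the activated cells it was called for 17, and without the replicate block limma called 0. In the fit with the block 1894 genes had an unadjusted p under 0.05. Array deviations are given here for activated arrays only, and no single resting array was left out. In the fit with array weights the lowest weight, 0.09, fell on another array than activated 0.5 µM replicate 3 (0.15).

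Il13 led these genes. It rose by 2.55 in activated cells and was at -0.17 in resting cells (adjusted p = 0.673), a difference of 2.72 (adjusted p = 3.78e-04; 8.28e-04 without 0.5 µM replicate 3). Cxcl10 was at -0.65 in resting cells (adjusted p = 0.156), a difference of -2.13 (adjusted p = 0.0325; 0.0903 without that array). Klrc1 was at -0.65 and Stra6, the receptor for retinol binding protein, at -0.31 in resting cells, against -2.34 and -1.98 in activated cells (both adjusted p = 0.0112; 0.0434 and 0.0454 without that array). Stra6 was at 98.2 to 231 in the activated controls and 34.0, 40.2 and 21.9 with the inhibitor. Interferon-regulated genes belonged here too: Irgm1 was at 0.00 and Irf1 at 0.09 in resting cells (difference -1.70 and -1.21, adjusted p = 0.0282 and 0.0469; 0.0687 and 0.0729 without that array). Iigp1, a further interferon-induced GTPase, rose by 0.85 in resting cells and fell by 1.06 ± 0.19 in activated cells (difference -1.90, adjusted p = 0.0112; 0.00792 without that array). Cd83 was at 0.07 in resting cells (difference -1.13, adjusted p = 0.0296; 0.0575 without that array). Several of these genes were close to the background in resting cells, where a fall cannot show in full. The resting controls were at 13.0 to 22.3 for Cd83, 6.78 to 185 for Cxcl10, 11.3 to 32.8 for Klrc1 and 19.1 to 47.2 for Stra6, beside an added constant of 16. For these genes a difference between the states cannot be told apart from a missing level in resting cells.

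Other genes fell further in resting cells. Rgcc, a regulator of the cell cycle induced by complement, fell by 1.34 in resting and 0.41 in activated cells (difference 0.93, adjusted p = 0.00203; 0.00261 without that array). Dipk1b was at -1.50 and -0.49 (difference 1.02, adjusted p = 0.0112; 0.0488 without that array), and Ubtd1 at -1.28 and -0.37 (difference 0.91, adjusted p = 0.0112; 0.0401 without that array). The activated falls themselves were lost without 0.5 µM replicate 1 or 2 for Dipk1b (0.0768 and 0.0794). For Ubtd1 they were lost without any one of 0.5 µM replicates 1, 2 and 3 (0.107 to 0.118), DMSO replicates 1 and 2 and Control-768 replicates 1, 2 and 3 (0.0557 to 0.0869). Without the block the falls of Rgcc (0.496), Dipk1b (0.672), Ubtd1 (0.447) and Iigp1 (0.591) were not called. Tbx21 rose further in resting cells (adjusted p = 5.47e-06) than in activated ones, where it was at 0.29 (difference -0.71, adjusted p = 0.0469; 0.0344 without that array). None of these differences between states was called without the block (lowest adjusted p = 0.182).

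**Figure D4:**
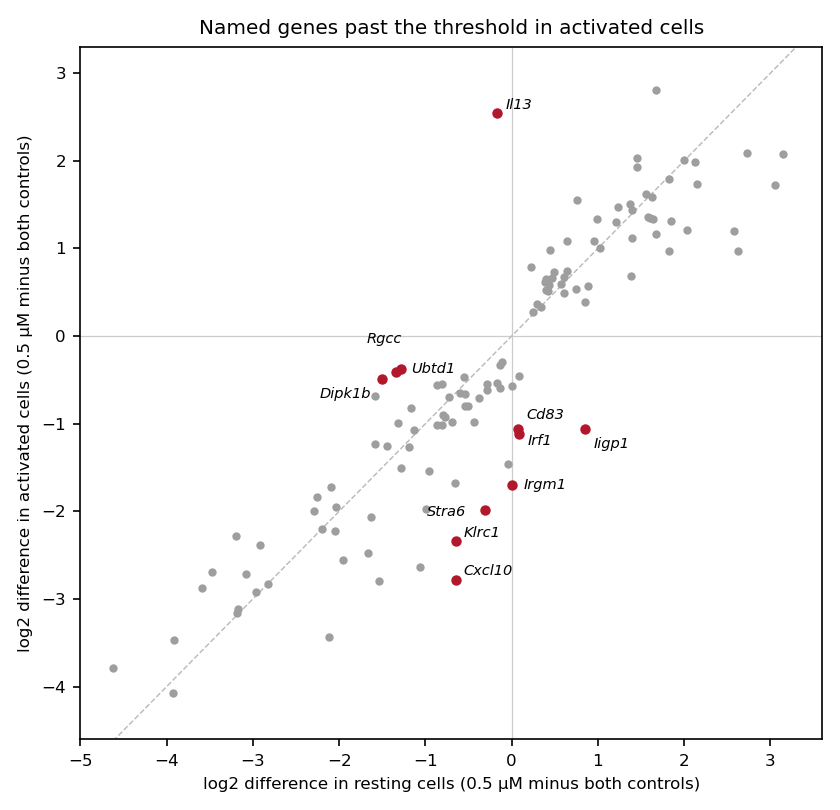
Log2 difference (0.5 µM I-BET-762 minus both controls) in activated cells against that in resting cells for the named genes called in activated cells; red, labelled points are genes whose difference between the states was called, and the dashed line marks equal changes. Most points follow the line from Cysltr1 and Shroom3 at the lower left to Lag3 at the upper right, with Il13 above it at -0.17 in resting and 2.55 in activated cells and Iigp1 on opposite sides of 0.

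Cells primed with 0.25 µM I-BET-762 lay between the controls and 0.5 µM for the genes given first here. These genes were chosen for a small p between 0.25 and 0.5 µM among genes called at 0.5 µM. The choice itself favours this position. The step from 0.25 to 0.5 µM was called for 36 genes (0.198%), 7 higher (0.0385%) and 29 lower (0.159%), and 136 genes (0.748%) were called between 0.25 µM and the controls; all 3 comparisons share arrays. Cysltr1 was at 633, 1071 and 661 with 0.25 µM, between 2900 to 3720 in the controls and 94.5 to 259 at 0.5 µM, and fell by a further 1.98 in the step (adjusted p = 0.00272). Trat1 was at 801, 661 and 787 and fell by 1.74 in the step (adjusted p = 0.00272). Prf1 was at 237, 176 and 243 and rose by 1.14 (adjusted p = 0.00335). Rapgef5, an activator of Rap GTPases, was at 180, 250 and 224 with 0.25 µM, against 246 to 388 in the controls and 67.7, 96.1 and 41.5 with 0.5 µM. Its step was -1.51 (adjusted p = 0.00392), and 0.25 µM against the controls gave -0.48 (adjusted p = 0.299).

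Serpinf1 and Hemgn fell in the step by 1.35 and 1.17 (adjusted p = 0.00874 for both). All 6 of these genes were called in the step without 0.5 µM replicate 3 (0.00592 to 0.0490), and without the block Cysltr1 (0.0188) and Trat1 (0.00689) were. Il13 was at 895, 215 and 2638 with 0.25 µM and rose by 1.26 in the step (adjusted p = 0.0233). For other genes the step was small: Ifitm1 was at 427, 394 and 1033 with 0.25 µM and 427, 589 and 1235 with 0.5 µM, a step of 0.27 (adjusted p = 0.652), and Selp at 131, 87.1 and 189 against 173, 106 and 107, a step of -0.04 (adjusted p = 0.984).

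**Figure D5:**
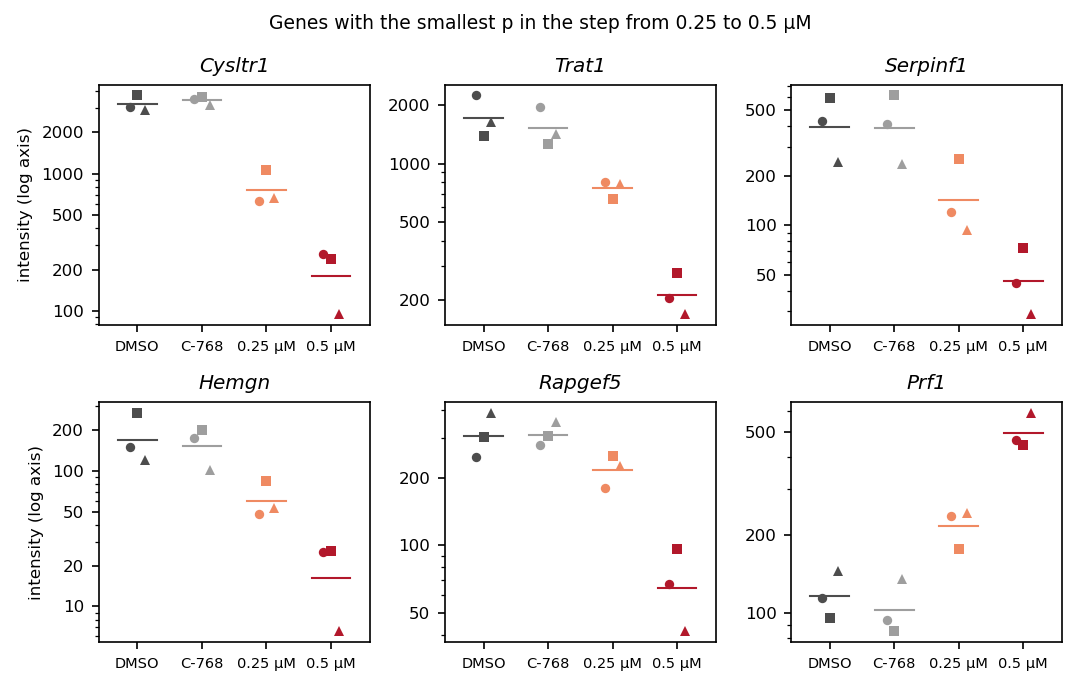
Intensity on a log axis (arbitrary units) of the 6 genes with the smallest p in the step from 0.25 to 0.5 µM among genes called at 0.5 µM, for DMSO, Control-768, 0.25 µM and 0.5 µM I-BET-762 in activated cells; circles, squares and triangles are replicates 1, 2 and 3 and bars are geometric means of 3 arrays. In each panel the 0.25 µM bar lies between those of the controls and of 0.5 µM, which the choice of these genes favours. Single 0.25 µM arrays of Serpinf1 (252) and Rapgef5 (250) overlap the lowest control (235 and 246).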

How the data were processed

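The 24 arrays of the study are Affymetrix mouse expression arrays of resting and activated Th1 cells, and the 9 arrays compared here were grouped by their titles. The authors deposited 1 linear intensity per probe set and array, after processing of their own whose normalization is not given in the sources. Array medians were 37.4 to 44.4, and 28.8 to 30.8% of values lay under 16. The number of arrays limits the precision: half-widths of the 95% intervals had a median of 0.28 log2.

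Of 45101 probe sets 34945 carried a single gene symbol in the platform annotation, 932 several and 9160 none, and 64 were controls. Where a gene had several, the probe set brightest on average over all arrays was kept, which left 18193 genes. limma 3.58.1 in R 4.3.3 was fitted to log2(intensity + 16) of all 24 arrays, with 8 group means, the replicate number as a block within each cell state and 12 residual degrees of freedom. The contrast was 0.5 µM minus the mean of the DMSO and Control-768 groups, 2-sided, with Benjamini-Hochberg adjustment over all genes. Deviations of same-numbered arrays correlated with r from 0.16 to 0.56 in all 9 pairs, and those of differently numbered arrays with -0.40 to 0.22, so the numbers were taken as pairing the samples. On simulated data 92% of genes changed by 1 log2 and 100% of those changed by 2 log2 were recovered, with 10 false calls. The changed genes were drawn from the brighter ones, and the noise was normal and independent between arrays. Changes of dim genes, an outlying array and shared control cultures were thus not simulated, and the shares do not cover them.

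Named were a fixed set of genes, the 20 largest rises and 20 largest falls among called genes without overlap, up to 4 called members of each list with the smallest adjusted p (2 members where none was called), and up to 6 genes each of the state and concentration comparisons. Other list members were named after their values were seen. The members, lists and tests were chosen with earlier results of these data known. Alternatives covered the added constant, dim genes, normalization, the block, the arrays and controls used, array weights, probe set choice and leaving out arrays.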

Additional observations from a re-analysis of the deposited data

Results flagged for a closer look

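Among 147 named genes 3 (2.04%) had a control array far from the other 5 of the 6 activated control arrays, where chance gives about 1 in 20 such groups. They were Sema6d on Control-768 replicate 2, at 19.8, Sytl2 on DMSO replicate 3, at 120, and Tnfrsf1b on Control-768 replicate 1, at 933.

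For 12 named genes the change in activated cells differed from that in resting cells by limma's test of the difference. The difference, activated minus resting, was 2.72 log2 for Il13, 1.02 for Dipk1b, 0.93 for Rgcc and 0.91 for Ubtd1. It was -2.13 for Cxcl10, -1.90 for Iigp1, -1.70 for Irgm1, -1.69 for Klrc1, -1.67 for Stra6, -1.21 for Irf1, -1.13 for Cd83 and -0.71 for Tbx21. Cxcl10, Klrc1, Stra6 and Cd83 were close to the background on resting arrays, so their differences are limited by it.

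Of 10092 probe sets without a single gene symbol, which entered no gene comparison, 144 (1.43%) were called by limma between 0.5 µM I-BET-762 and the controls in activated cells, 78 higher and 66 lower.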

How the results depend on the processing

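The 1008 calls in activated cells became 275 without the replicate block, 575 with a block shared by both states, 442 with the 9 compared arrays alone, 596 with DMSO alone, 613 with Control-768 alone and 56 with 3 differences within replicate numbers, which was added after the data were seen. Leaving out 1 array gave 664 to 842 calls, and leaving out a replicate number 235 to 1314. The counts with arrays left out include genes that were not among the 1008. The split of higher and lower calls moved to 758 and 623 with array weights, 199 and 465 without 0.5 µM replicate 1, and 358 and 330 without 0.5 µM replicate 3. The 1627 calls in resting cells became 491 without the block and 421 to 1806 without a replicate number. The 49 differences between states became 9 with an added constant of 1, 111 with 64, 106 without dim genes, 28 without probe sets of shared sequence, 0 without the block, and 0 to 17 when arrays were left out. The 36 calls between concentrations became 16 with a constant of 1, 67 without dim genes, 2 without the block and 1 to 18 when arrays were left out. The 136 calls at 0.25 µM became 82, 36 and 8 to 239 with a constant of 1, without the block and without a replicate number. Control-768 and DMSO gave 0 limma calls in every setting run for them. Of 121 named genes called, 24 kept their call in every one of the 26 settings that gave them a value, and Tox2 changed sign, to -0.22 without probe sets of shared sequence. The causes were not tested.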

Other observations

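Il13, Irf1, Csf2, Il3 and Acsl6 lie in one stretch of 14 protein-coding genes in RefSeq's gene order on GRCm38.p6, between Kif3a and Acsl6, and all 14 were measured. Of these 6 were called, where 5.54% of all genes were, and nothing is read from this share. The stretch was chosen after the values were seen. Il13 was called higher (2.55), and 5 genes were called lower: Irf1 (-1.12), the collagen-modifying enzyme P4ha2 (-1.33, adjusted p = 0.00427 by limma), Csf2 (-1.68), Il3 (-2.23) and Acsl6 (-2.92). The other 8 were not called, among them the Th2 cytokine genes Il4 (0.61) and Il5 (-0.42) and, between Il13 and Il5, the DNA repair gene Rad50 (-0.03). In resting cells Il13 was at -0.17, Irf1 at 0.09, P4ha2 at -0.69 (adjusted p = 0.107 by limma), Csf2 at -0.66, Il3 at -2.05 and Acsl6 at -2.97.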
